A study of Homo sapiens with 3 samples.

Results

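EVC, FAM161A, ANKRD26, CEP152, MAP9 and CSPP1 are 6 genes whose products act at the primary cilium, the centriole or on microtubules. They were examined among 12033 genes that carry RefSeq transcript rows of their own in an RNA sequencing table of PLC, a line that the labels describe as human liver cancer cells. Each gene is the sum of its messenger RNA rows. All 6 were measured, meaning a mean level of at least 1 CPM (counts scaled to each library's size with TMM factors) over the libraries, as were 1071 named genes in total. The 6 genes were chosen by their levels and log2 ratios in these same libraries, with the results known, so their levels and counts are descriptions and support nothing about cilia or centrosomes as a class.

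The study asked whether HKDC1, a hexokinase family member, and RBBP5, a core subunit of histone H3K4 methyltransferase complexes, regulate gene expression. It has 3 libraries with no replicates: NTC, taken here as the control, shHKDC1, in which HKDC1 was knocked down, and shRBBP5, in which RBBP5 was knocked down. All cells were grown in the same serum-containing medium, and the labels give neither the number nor the sequence of the hairpins, nor whether cells were clones or pools. Neither HKDC1 nor RBBP5 has a named row, so how far either knockdown lowered its target is not analysed here.

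The primary cilium is a single antenna built on the mother centriole, and it concentrates the receptors of Hedgehog signalling at its membrane. The centriole pair also organises the centrosome, duplicates in step with the cell cycle and anchors the microtubules of the mitotic spindle. Hepatocytes largely lack a primary cilium, whereas the bile duct cells of the liver carry one. EVC acts at the base of the cilium to pass on Hedgehog signals, and ANKRD26 sits on the distal appendages that attach the mother centriole to the membrane. FAM161A binds microtubules in the connecting cilium of photoreceptors. CEP152 is the scaffold that brings the kinase PLK4 to the centriole for duplication, MAP9 binds and stabilises spindle microtubules, and CSPP1 acts on both spindle poles and ciliary microtubules.

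The NTC library held 161750310 units in all, the shHKDC1 library 115556160 and the shRBBP5 library 154533913. A unit is the estimated count as deposited, and 4 units were taken as 1 sequenced fragment, an assumption made from the values, since 525 rows of NTC held 4 units against 332 with 3 and 235 with 5. Anonymous assembled loci held 99.43% to 99.60% of the units, so the named genes cover a small remainder, and whether further reads of a gene lie in a locus was not tested. ALB and AFP have no named rows, and of 33 hepatocyte markers 6 had rows and 2, FGB and F5, were measured. Among other cell types, PDGFRB alone of 13 fibroblast markers was measured, none of 13 blood and endothelial markers was, and PTPRC stood at 0 units in each library.

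Promoter sequences are shown for the 3 genes in which a motif search found a match, from 250 bases before the RefSeq start on GRCh38.p14, read in the direction of the gene. Matches are in capitals.

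FAM161A (chr2:61854061-61854310, minus strand): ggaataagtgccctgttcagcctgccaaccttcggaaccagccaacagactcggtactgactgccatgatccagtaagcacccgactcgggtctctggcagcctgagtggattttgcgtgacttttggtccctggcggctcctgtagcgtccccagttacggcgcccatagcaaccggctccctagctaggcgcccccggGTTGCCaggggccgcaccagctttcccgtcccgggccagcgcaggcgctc

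CEP152 (chr15:48811070-48811319, minus strand): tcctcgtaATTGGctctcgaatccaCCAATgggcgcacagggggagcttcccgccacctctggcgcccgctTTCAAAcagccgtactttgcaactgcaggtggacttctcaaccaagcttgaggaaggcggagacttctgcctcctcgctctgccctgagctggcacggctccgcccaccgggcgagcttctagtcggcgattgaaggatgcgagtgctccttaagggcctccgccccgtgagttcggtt

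MAP9 (chr4:155376966-155377215, minus strand): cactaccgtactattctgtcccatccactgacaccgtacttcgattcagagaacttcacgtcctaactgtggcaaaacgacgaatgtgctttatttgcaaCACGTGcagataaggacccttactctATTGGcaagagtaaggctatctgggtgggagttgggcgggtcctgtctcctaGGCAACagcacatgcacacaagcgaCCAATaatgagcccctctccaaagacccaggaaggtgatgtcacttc

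The motifs were searched on both strands. GTTGCC, a partial site of the RFX factors that drive many ciliary genes, was found in FAM161A with its first base at −50 and, on the opposite strand, in MAP9 at −72. It occurs in 10.2% of 35116 promoter windows of the same length, a set without chromosome 8, where CSPP1 lies. It is also the first part of the paired RFX site, which 0.330% of windows hold and none of the 5 windows searched did. TTTGAA, the core of the cell cycle homology region, was found in CEP152 (−179, opposite strand; 13.3% of windows). CCAAT occurred at 2 places each in CEP152 (−242 and −225) and MAP9 (−124 and −47), against 32.0% of windows with at least 1. The E-box CACGTG was found in MAP9 at −150 (6.34% of windows). The E2F motifs TTTGGCGC (0.550%) and TTTCCCGC (1.39%) and the GLI motif GACCACCCA (0.199%) were not found in these windows, and the windows of EVC and ANKRD26 held none of the motifs. These matches describe letters only and are not evidence of binding.

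EVC held 4702 units in the NTC library, 656 in shHKDC1 and 2518 in shRBBP5, or 26.8, 6.35 and 15.8 CPM. NTC was highest and shHKDC1 lowest, with shRBBP5 between them. The shHKDC1 level was 4.23-fold below NTC, a log2 ratio of −2.08 with a 95% interval of −2.33 to −1.84. Intervals here come from an exact conditional binomial on fragments and cover counting error only, because no library has a replicate. shRBBP5 over NTC gave −0.77 [−0.91 to −0.63], and the direct ratio of shHKDC1 over shRBBP5 was −1.31 [−1.57 to −1.06]. A gene is called here when its ratio is at least 1 in size and its interval excludes 0, so EVC was called lower in shHKDC1 against both other libraries and was not called in shRBBP5 against NTC. EVC overlaps CRMP1 in the RefSeq annotation. CRMP1 stood at 3.94, 2.17 and 3.90 CPM in the NTC, shHKDC1 and shRBBP5 libraries, and no strand setting is known to separate their reads. The partner gene EVC2, its neighbour on the chromosome, has no named row.

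ANKRD26, the distal appendage protein, held 794 units in the NTC library, 108 in shHKDC1 and 374 in shRBBP5, or 4.53, 1.05 and 2.34 CPM. The order of libraries was that of EVC. Its log2 ratios over NTC were −2.11 [−2.75 to −1.53] in shHKDC1 and −0.95 [−1.31 to −0.58] in shRBBP5. The direct ratio was −1.16 [−1.85 to −0.54], a call resting on about 27 fragments in shHKDC1. With scaling by total counts the shRBBP5 ratio became −1.02 and was called.

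FAM161A, the photoreceptor ciliary protein, held 707 units in the NTC library, 93 in shHKDC1 and 527 in shRBBP5. The levels were 4.04, 0.900 and 3.30 CPM, so shHKDC1 stood apart while NTC and shRBBP5 lay close together. Against NTC the shHKDC1 ratio was −2.16 [−2.88 to −1.55], on about 23 fragments. The shRBBP5 ratio of −0.29 [−0.62 to 0.04] included 0, while its interval did not with total-count scaling (−0.69 to −0.02) or with each unit taken as 1 read (−0.45 to −0.12). When a noncoding row of the gene was added to the sum, that ratio turned to 0.10. The direct ratio was −1.87 [−2.60 to −1.25], and the row with most units, NM_001201543.2, gave −1.16 [−1.91 to −0.49] alone.

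**Figure D1:**
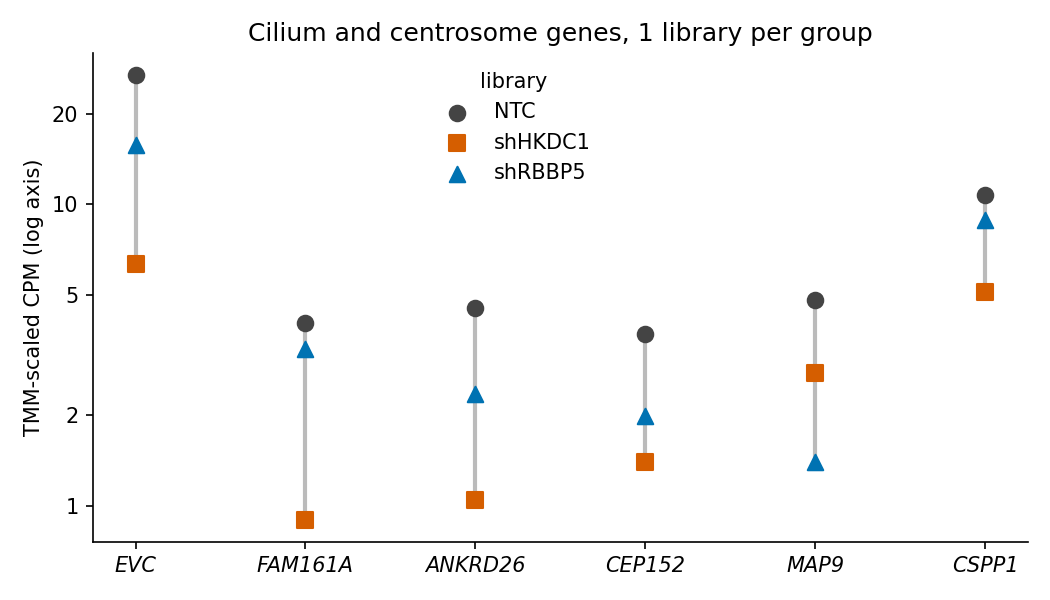
TMM-scaled CPM (log axis) of each gene in the NTC (circle), shHKDC1 (square) and shRBBP5 (triangle) libraries, 1 library per group. In each of the 6 genes NTC is the highest point, and shHKDC1 is the lowest in all but MAP9, where shRBBP5 is lowest at 1.40 CPM.

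CEP152, the PLK4 scaffold of centriole duplication, held 653 units in the NTC library, 144 in shHKDC1 and 318 in shRBBP5, or 3.73, 1.39 and 1.99 CPM. It was called lower in shHKDC1 at −1.42 [−1.98 to −0.89], while shRBBP5 gave −0.90 [−1.30 to −0.50]. The direct ratio was −0.51 [−1.14 to 0.06], an interval that includes 0. With total-count scaling it was −0.72 [−1.34 to −0.15], and with each unit taken as 1 read the interval was −0.81 to −0.23, so whether 0 was included depended on the scaling and on what a unit is taken to be.

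CSPP1, the spindle pole and ciliary protein, held 1879 units in the NTC library, 528 in shHKDC1 and 1414 in shRBBP5, or 10.7, 5.11 and 8.86 CPM. These sums cover 8 of the 11 messenger RNA transcripts that RefSeq lists for the gene, and the gene overlaps ARFGEF1. The shHKDC1 ratio over NTC was −1.07 [−1.36 to −0.79], just past the 2-fold line, and upper-quartile scaling put it at −0.99, which ended the call. In shRBBP5 the ratio was −0.28 [−0.48 to −0.07]. Directly, shHKDC1 lay below shRBBP5 by −0.79 [−1.10 to −0.50], which was not called, although total-count scaling gave −1.0010 and a call.

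MAP9, the spindle microtubule protein, showed another order, with 845 units in the NTC library, 285 in shHKDC1 and 223 in shRBBP5, or 4.82, 2.76 and 1.40 CPM. Here shRBBP5 was the lowest library. Its ratio over NTC was −1.78 [−2.23 to −1.35], the single call of the 6 genes in that comparison, at percentile 1.68 of the 1071 named genes. The shHKDC1 ratio of −0.81 [−1.22 to −0.42] was not called, though it reached −1.08 with total-count scaling. Directly, shHKDC1 exceeded shRBBP5 by 0.98 [0.44 to 1.50], just short of a call, and DESeq2 size factors (1.00) and upper quartiles (1.10) put it past the line. MAP9 was thus the single gene of the 6 with a direct ratio above 0.

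**Figure D2:**
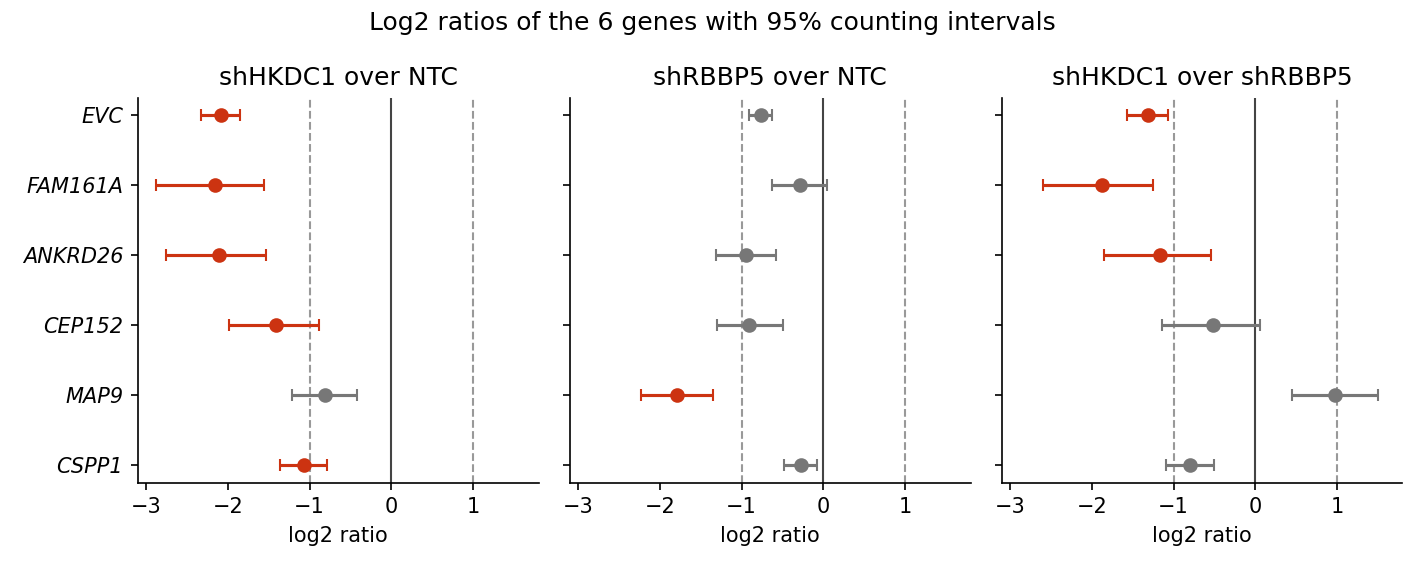
Log2 ratios of the 6 genes for shHKDC1 over NTC, shRBBP5 over NTC and shHKDC1 over shRBBP5, with bars for exact 95% counting intervals and dashed lines at the 2-fold threshold. Red points were called: 5 genes in the first panel, MAP9 alone in the second, and EVC, FAM161A and ANKRD26 in the third.

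In shHKDC1 against NTC, 5 of the 6 genes were called lower and 0 higher, where 24.2% of the 1071 measured named genes were called lower and 8.5% higher. The median log2 ratio was −1.75 for the 6 genes, −0.41 for named genes and −0.01 for anonymous loci. Because the genes were picked with this contrast in view, nothing is read from the excess. For shRBBP5 against NTC, 1 of 6 was called lower, against 9.06% of named genes lower and 2.43% higher. The medians were −0.83 for the 6 and −0.20 for named genes. In the direct comparison 3 of 6 were lower and 0 higher, beside 18.8% lower and 11.4% higher among named genes, with medians of −0.98 and −0.15. The first and second comparisons share the NTC library, and the direct one shares a library with each.

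Scaling moves these ratios together. Total counts shifted the median of all features from −0.03 to −0.31 in shHKDC1 over NTC and from −0.04 to −0.25 in the direct comparison. Relative to that median, MAP9 stood at −0.78 with TMM and −0.77 with total counts in shHKDC1 over NTC, and CSPP1 at −1.04 with either. Under total counts, the shHKDC1 over NTC calls among named genes were 5.76% higher and 35.3% lower, and 8.36% and 25.7% in the direct comparison. With no CPM filter the balance turned, to 9.97% higher and 8.93% lower in the first of these and 11.8% and 7.33% in the second, and for shRBBP5 over NTC it moved to 2.59% higher and 5.50% lower.

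**Figure D3:**
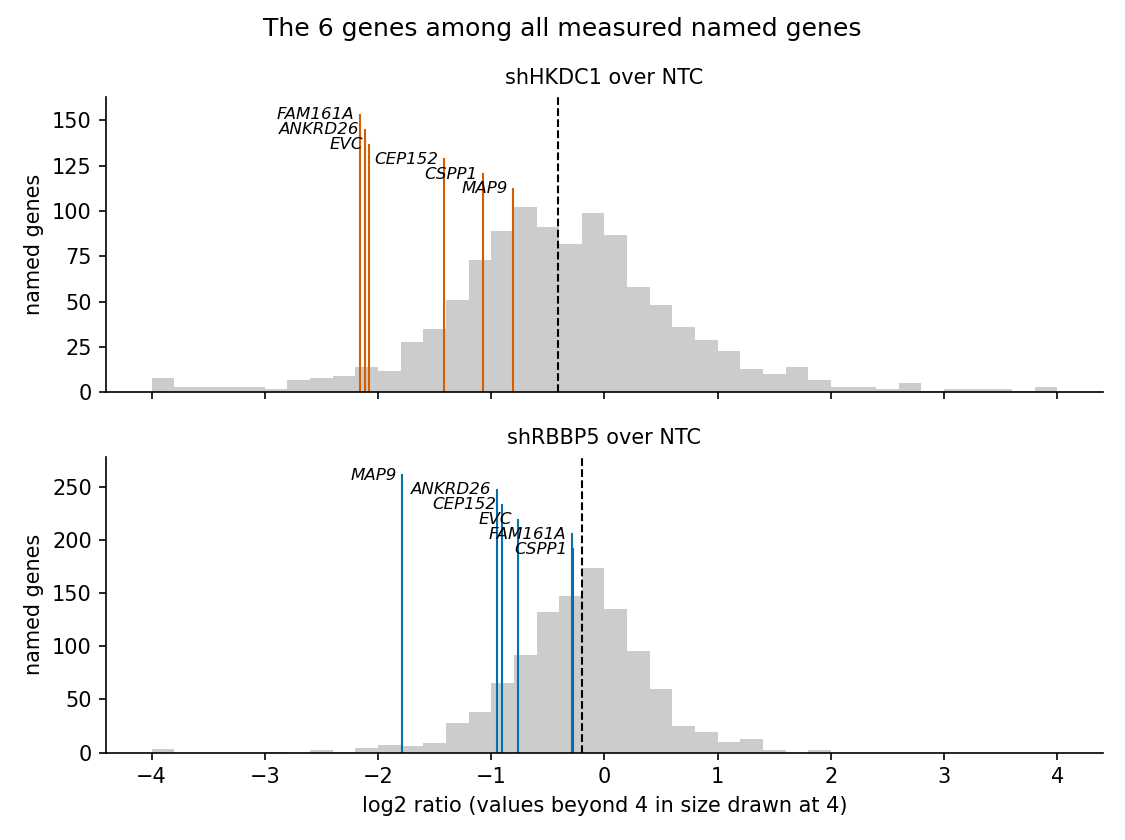
Histograms of log2 ratios over NTC of the 1071 measured named genes in shHKDC1 (upper) and shRBBP5 (lower), with a coloured line at each of the 6 genes and a dashed line at the median of named genes (−0.41 and −0.20). FAM161A, ANKRD26 and EVC lie between −2.16 and −2.08 in the upper panel, and MAP9 at −1.78 in the lower.

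The transcript rows are parts of the sums by which the genes were chosen, so their ratios are descriptions too, and their makeup differed from gene to gene. EVC had a similar makeup in each library: NM_153717.3 carried 57.8% of its units in the NTC library, 55.6% in shHKDC1 and 60.2% in shRBBP5. The exact binomial intervals of these shares overlapped (54.9% to 60.6%, 47.5% to 63.2% and 56.2% to 64.0%). Both main EVC rows gave similar ratios in shHKDC1 over NTC, −2.13 [−2.47 to −1.82] for NM_153717.3 and −2.03 [−2.40 to −1.66] for NM_001306090.2. MAP9 has 1 row, so its makeup cannot vary.

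In CSPP1 the rows in use differed altogether between shHKDC1 and the other libraries. NM_001364869.1 carried 1257 units in NTC and 1089 in shRBBP5, which is 66.9% and 77.0% of the gene, and stood at 0 units in shHKDC1. NM_001382391.1 carried all 528 units of shHKDC1 and 0 in the other libraries. The library at 0 units was set to a floor of 3 fragments (12 units). Against that floor, the first row was 61.8-fold lower and the second 74.6-fold higher in shHKDC1 than in NTC. These folds leave out counting error in the other library and are not lower limits. For shHKDC1 over NTC, the exact interval of the log2 ratio had an upper limit of −5.64 for NM_001364869.1. For NM_001382391.1 its lower limit was 5.90. NM_024790.6 was also at 0 in shHKDC1, with 479 units in NTC and 205 in shRBBP5. In shRBBP5 over NTC it was called lower, at −1.09 [−1.60 to −0.62], whereas NM_001364869.1 was at −0.07 [−0.31 to 0.17].

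ANKRD26 drew 37.7% [31.1% to 45.03%] of its NTC units from NM_001256053.2, which stood at 0 in both knockdown libraries. The exact upper limit of that share was 12.8% in shHKDC1 and 3.85% in shRBBP5. Its other row, NM_014915.3, had ratios over NTC of −1.43 [−2.10 to −0.83] in shHKDC1 and −0.27 [−0.67 to 0.13] in shRBBP5, so much of the shRBBP5 difference in the sum lay in the row listed at 0. FAM161A had NM_032180.3 at 0 in shHKDC1, with 161 units in the NTC library, 0 in shHKDC1 and 206 in shRBBP5, while NM_001201543.2 was present in each (546, 93 and 321 units). CEP152 likewise drew all 144 shHKDC1 units from NM_001194998.2, and NM_014985.4 had 79, 0 and 21 units. In shHKDC1 over NTC the main row of FAM161A was at −1.79 [−2.51 to −1.16] and that of CEP152 at −1.23 [−1.81 to −0.70].

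Rows of this kind were common in the table. Among 558 messenger RNA rows that reached 500 units in some library, 109 (19.5%) stood at 0 in another, and 84 of these 558 were at 0 in shHKDC1, 36 in shRBBP5 and 19 in NTC. Of 593 measured genes with at least 2 rows in use, 33.9% had all their units on 1 row in shHKDC1, against 13.8% in NTC and 21.4% in shRBBP5. Of the 5 genes here with several rows, 4 did so in shHKDC1, 1 in shRBBP5 and 0 in NTC. shHKDC1 is also the library with the fewest units, and the part that depth or the sharing of reads among overlapping transcripts has in these makeups was not tested.

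**Figure D4:**
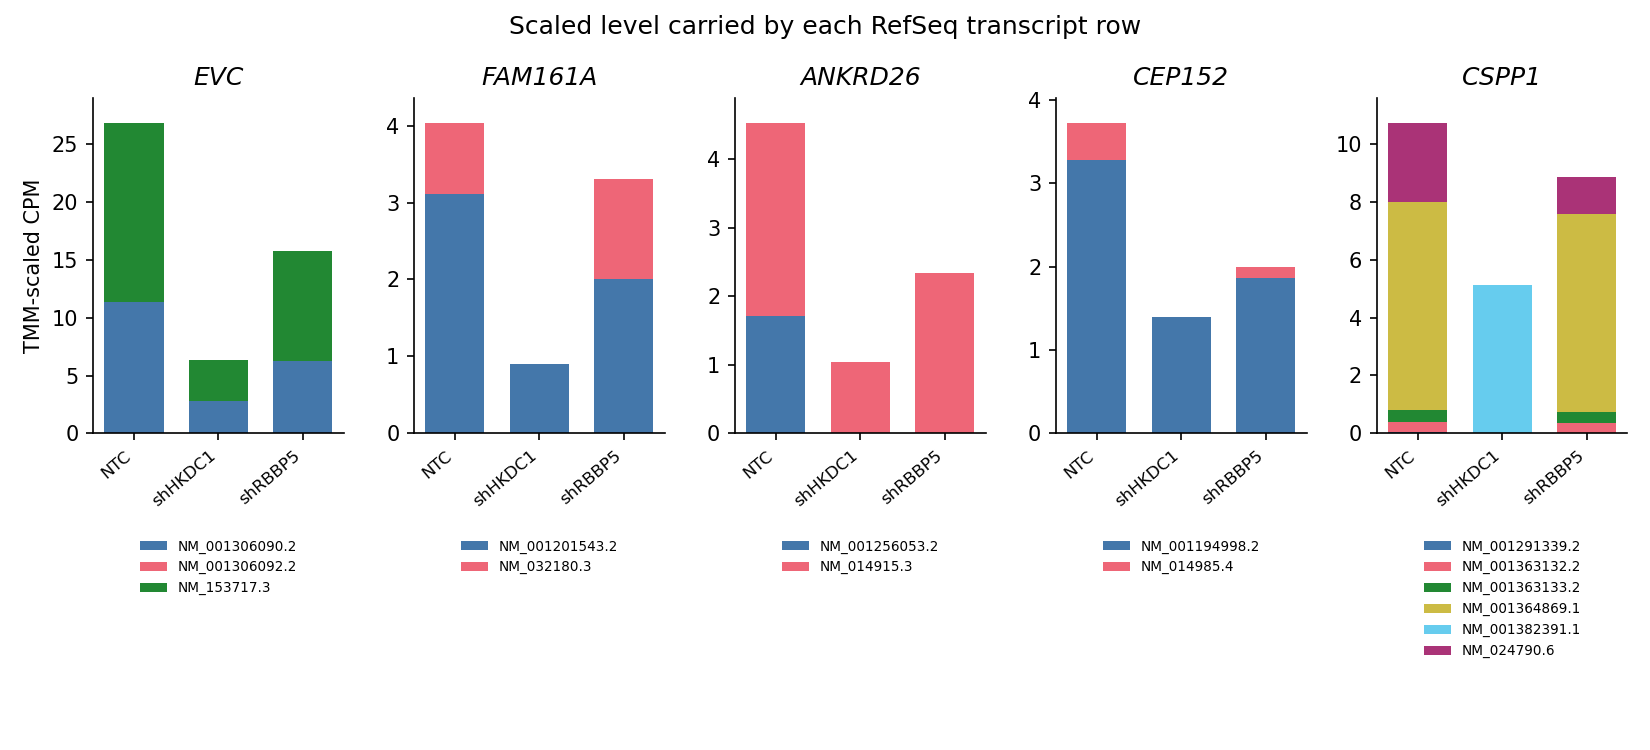
TMM-scaled CPM of each messenger RNA row, stacked by gene and library, for the 5 genes with several rows; each panel has its own axis from 0. EVC has a similar makeup in each library, while CSPP1 at 5.11 CPM in shHKDC1 consists of a row listed at 0 units in the other libraries.

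Other genes of the same structures were taken from 11 lists written by role, holding 481 names of which 133 had rows. Outside the 6, 54 were measured. In shHKDC1 against NTC, 14 of the 54 were called lower (25.9%) and 0 higher, with a median log2 ratio of −0.68 against −0.41 for all named genes. Among named genes 24.2% were lower and 8.5% higher. With total counts 25 of the 54 were lower (46.3%) and 0 higher, against 35.3% and 5.76% of named genes. DESeq2 size factors gave 11 lower (20.4%) and upper quartiles 10 (18.5%), against 22.9% and 20.9% of named genes. Both gave 0 higher, against 8.77% and 9.62% of named genes. Whether the list's share of lower calls lay above or below that of named genes thus depended on the scaling. In shRBBP5 against NTC, 3 were lower (5.56%) and 1 higher (1.85%), beside 9.06% and 2.43% of named genes, with medians of −0.18 and −0.20. In the direct comparison 13 were lower (24.1%) and 2 higher (3.70%), beside 18.8% and 11.4% of named genes, with medians of −0.45 and −0.15.

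Among 4 other measured genes of Hedgehog signalling at the cilium, ADCY5, an adenylyl cyclase, was called in both knockdowns and in opposite directions. Its NTC level of 4.17 CPM compared with 1.16 CPM in shHKDC1 and 9.39 CPM in shRBBP5, with ratios over NTC of −1.84 [−2.46 to −1.28] and 1.17 [0.91 to 1.43]. GPR161, the ciliary receptor that restrains Hedgehog output, was called in neither (−0.20 and 0.25), and the co-receptor CDON likewise (−0.51 and −0.46).

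None of the 6 other measured genes of centriole duplication was called in any comparison. Among named genes, 24.2% were lower and 8.5% higher in shHKDC1 over NTC, 9.06% and 2.43% in shRBBP5 over NTC, and 18.8% and 11.4% directly. The same shares stand beside each list here, and with so few genes per list nothing is read from its count. CCP110, which caps centrioles, was at −0.50 [−0.79 to −0.21] in shHKDC1, and CEP57L1, SPICE1 and CEP97 ranged from −0.70 to −0.02. Of 4 appendage and basal body genes, TTBK2, the kinase that starts cilium growth, was lower in shHKDC1 (−1.05 [−1.40 to −0.71]). It was at −0.04 in shRBBP5. TBC1D31, CEP83, a distal appendage protein, and CEP128 were not called in either knockdown.

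Pericentriolar and satellite genes had 3 of 5 lower in shHKDC1, where 24.2% of named genes were: CEP112 (−1.10 [−1.48 to −0.74]), CEP162, which promotes assembly of the transition zone (−1.57 [−2.21 to −0.998]), and CEP126 (−1.18 [−1.88 to −0.50]). HAUS3, an augmin subunit, was at −0.48, and LRRCC1, chosen after its values were seen, was the 1 of the 5 called lower in shRBBP5 (−1.39 [−2.05 to −0.79]). Both transition zone genes measured, AHI1 (−0.52) and TMEM67 (−0.82), were uncalled in shHKDC1. The same held over NTC for both transport genes, IFT88 (−0.86 [−1.20 to −0.54]), a core intraflagellar transport subunit, and DYNC2H1, the motor of return transport (−0.63). Directly, DYNC2H1 was called lower (−1.07 [−1.58 to −0.58]), where 18.8% of named genes were, and IFT88 was not. BBSome and trafficking genes were uncalled in each comparison, with ARL6 (0.30) and LZTFL1 (0.92) above 0 in shHKDC1 and INTU (−0.80) and BBS12 (−0.40) below it. None of 5 photoreceptor cilium genes was called in a comparison, among them CEP78 (−0.39 [−0.54 to −0.23]), the ciliary kinase CILK1 (0.43 [0.19 to 0.67]), CFAP418 (−0.33) and SPATA7 (−0.88).

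Of 9 microtubule and spindle genes beside MAP9, 4 were lower in shHKDC1, beside 24.2% of named genes. KATNAL1, a katanin-like severing protein, was at −1.03 [−1.37 to −0.71], and AGTPBP1, which trims glutamates from tubulin, at −1.03 [−1.42 to −0.66]. FIGN, another severing protein, was at −0.76, and CCSER2 at −0.35. The remaining pair was chosen after their values were seen: MAP1A at −2.93 [−4.01 to −1.99], on 39 units in shHKDC1, and EML5 at −2.04 [−2.81 to −1.29], both with part of their transcripts on rows. MAP6, a stabiliser of microtubules also chosen after its values were seen, was at 1.77 CPM in the NTC library, 1.53 in shHKDC1 and 0.545 in shRBBP5. Its shHKDC1 ratio over NTC, −0.21 [−0.79 to 0.37], included 0. Its shRBBP5 ratio over NTC was −1.69 [−2.45 to −0.99] and its direct ratio 1.48 [0.70 to 2.31].

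Motile axoneme genes had 4 of 9 lower in shHKDC1, against the same 24.2%. HYDIN, of the central pair, was at −1.27 [−1.88 to −0.72]. QRICH2 (−0.96), DNAH5, an outer arm dynein (0.39), and SPAG6 (0.81) were not called in shHKDC1 over NTC. In the direct comparison 4 of the 9 were lower and 1 higher, beside 18.8% and 11.4% of named genes. QRICH2 was among the lower (−1.56 [−1.95 to −1.19]), and DNAH5 was the higher one (1.15 [0.77 to 1.52]). HYDIN, CFAP44, SPEF2 and CFAP43 are named here in view of their values. The last 3 were at −1.77, −1.28 and −1.0043, and SPEF2 was also lower in shRBBP5 (−1.26 [−1.88 to −0.69]). Among 4 genes of cilium transcription and disassembly, CIMAP3 was lower in shHKDC1 (−1.09 [−1.71 to −0.56]). The kinase gene NEK1 (−0.66) and the transcription factor RFX3 (0.15) were not.

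**Figure D5:**
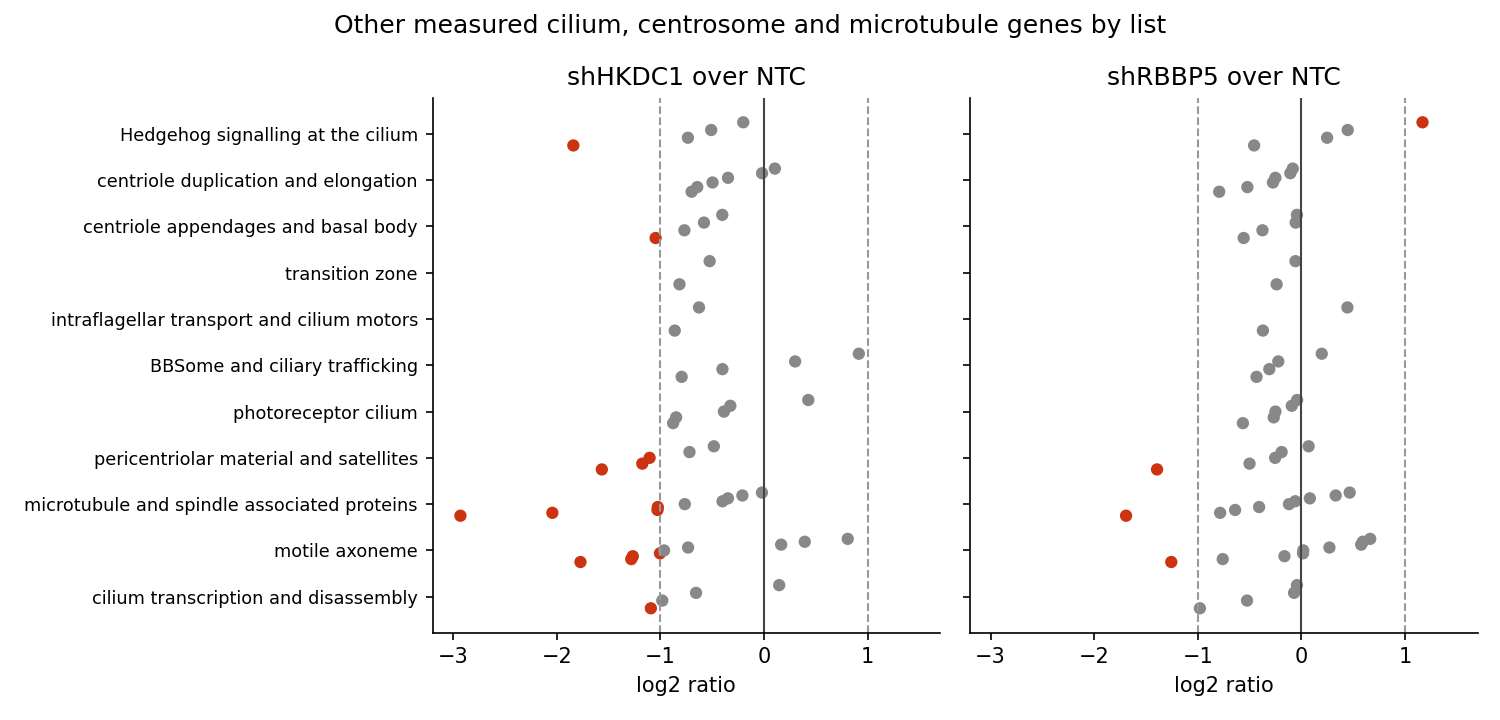
Log2 ratios over NTC of the 54 other measured cilium, centrosome and microtubule genes, 1 point per gene by list, with dashed lines at the 2-fold threshold and called genes in red. Called genes lie to the left in shHKDC1 (14 lower, 0 higher), and 3 lie to the left and ADCY5 to the right in shRBBP5.

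Proliferation genes are of interest beside centriole genes, since centrioles duplicate in cycling cells. Of 47 on that list 3 had rows, BRIP1, CENPE and MYBL1, and their summed level of 28.5 CPM in the NTC library compared with 8.85 in shHKDC1 and 18.5 in shRBBP5. All 3 were lower in shHKDC1 (−1.27, −2.00 and −1.94) and none was called in shRBBP5. Both measured hepatocyte genes, of 33 on that list, were lower in shHKDC1 as well (FGB −2.00, F5 −1.82). Among all measured named genes 24.2% were lower in shHKDC1 and 9.06% in shRBBP5. The other genes of both lists were not measured, so nothing is read from these counts about either list. PDGFRB, the single measured marker of 13 for fibroblasts, was called higher in both knockdowns, at 1.29 [0.55 to 2.09] in shHKDC1 and 1.36 [0.71 to 2.11] in shRBBP5. Below the measured level, COL3A1 (42, 6 and 26 units in NTC, shHKDC1 and shRBBP5), PDGFRA (13, 0 and 11) and DCN (6, 0 and 4) were highest in NTC. LUM (0, 4 and 7) and ACTA2 (0, 4 and 0) were not, so the list has no common direction. The part of proliferation and cell type genes in the levels of the 6 genes was not tested. Fewer cells expressing a gene and less RNA per cell cannot be told apart in these bulk libraries.

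The genes most like each of the 6 were taken from 629 protein-coding genes with a mean of at least 2 CPM, by the distance between their pairs of log2 ratios over NTC, which is a description over 3 libraries. EVC lay nearest to CENPE, a kinetochore motor (distance 0.0853), COBLL1 (0.109) and ZNF292 (0.185). ZNF292 was also nearest to ANKRD26 (0.0785), followed by VPS13A (0.167) and ANKRD30A (0.175). FAM161A had ATP8A1 (0.103), STAT5A (0.159) and TRMT10A (0.226), and CEP152 had PIK3R1 (0.102), UNC13A (0.104) and ZNF180 (0.121). CSPP1 had the closest matches, GAB1 (0.0356), DSC3 (0.0529) and VPS13B (0.0637). MAP9 had the most distant, ZNF30 (0.247), the kinesin KIF26A (0.258) and RAPGEF6 (0.365). Among the 6 themselves EVC and ANKRD26 were closest (0.187), and FAM161A and MAP9 farthest apart (2.02).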

How the data were processed

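RNA from PLC cells was sequenced in 3 libraries, 1 per group, grouped by their titles. As deposited, the table holds estimated counts made by the authors for each row and not normalized for depth or length, so levels are compared within a gene only. Per the submitters' processing notes, HISAT2 2.2.1, StringTie 1.3.4, DESeq2 1.28.1 and hg19 were involved, in roles not stated. They state neither the strand setting nor the counting tool, and the annotation is not given in the sources used here. Columns abbreviated shHD and shRB were mapped to shHKDC1 and shRBBP5.

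Of 27403 RefSeq rows, 27354 were matched by accession without version to symbols in the RefSeq GRCh38.p14 table, and 49 were not. Messenger RNA rows were summed per gene. Promoters are from RefSeq. Chromosome 8, which holds CSPP1, was left out of the promoter search and of its background windows, so 5 of the 6 genes were searched. Scaling used TMM (edgeR 4.0.16, R 4.3.3) with factors of 1.083, 0.894 and 1.033 for NTC, shHKDC1 and shRBBP5, and ratios a pseudocount of 0.5 units. Intervals are exact 95% Clopper-Pearson (SciPy 1.17.1), taking 4 units as 1 fragment. They cover counting error only, and, without molecular identifiers, reads are not independent molecules. With 1 library per group no test was made. The design had assumed the binomial on counts as given, which is an alternative here. The rule was tested on simulated Poisson counts of fragments at 4 units each. That is the model the intervals assume, so the simulation says nothing about replicate spread or about what a unit is. A floor of 3 fragments is 0.0685, 0.116 and 0.0752 CPM in the same order.

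The 6 genes and the lists were chosen with earlier results of these data known. Genes named by rule were the 6, up to 4 per list in order of mean CPM, and the 3 nearest in pattern to each of the 6. LRRCC1, MAP1A, EML5, MAP6, HYDIN, CFAP44, SPEF2 and CFAP43 were named outside it, after their values were seen. Some list genes that the rule would name are not reported here by name. Alternatives were total counts, DESeq2 1.42.0 size factors, upper quartiles, a pseudocount of 5, leaving out the 20 most abundant rows, other CPM filters (none or 5), other row sums and units as reads.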

Additional observations from a re-analysis of the deposited data

Results flagged for a closer look

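A noncoding transcript row of FAM161A, NR_037710.2, lies outside the sums used above and was higher in a knockdown than in the control. It held 90 units in the NTC library, 0 in shHKDC1 and 249 in shRBBP5. The log2 ratio of shRBBP5 over NTC was 1.60 [0.91 to 2.40] by counting error alone, with no replicate. The messenger RNA sum of the gene was at −0.29 in the same comparison. With the noncoding row added, the sum was at 0.10 [−0.19 to 0.39]. Of the messenger RNA rows, NM_001201543.2 held 546 units in NTC and 321 in shRBBP5, and NM_032180.3 held 161 and 206. The part that sharing of reads among overlapping transcripts has in this difference was not tested.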

How the results depend on the processing

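No paired analysis was possible because each group has 1 library and the labels give no replicate numbers, and for the same reason no replicate could be left out. Of 144 recomputed ratios of the 6 genes, 136 kept their direction and their call. Some of the 144 could not move, so this count is not a measure of stability. Taking units as reads alters intervals and leaves each ratio as it is. Only FAM161A has a noncoding row to add, and MAP9 has 1 row, so choosing its most abundant row changes nothing. With total counts, MAP9 in shHKDC1 over NTC (−1.08), ANKRD26 in shRBBP5 over NTC (−1.02) and CSPP1 in the direct comparison (−1.0010) became calls, which made 2 of the 6 genes lower in shRBBP5. Upper quartiles ended the call of CSPP1 in shHKDC1 over NTC (−0.99). Upper quartiles (1.10) and DESeq2 size factors (1.00) each made MAP9 a call in the direct comparison, so 1 gene was higher. Adding the noncoding row of FAM161A turned its shRBBP5 ratio over NTC to 0.10. Taking the most abundant CSPP1 row alone gave −10.46 in the direct comparison, a size set by the pseudocount because that row has 0 units in shHKDC1. Leaving out CSPP1, an alternative chosen after seeing the data, kept each count of called genes within 1.5 times.

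Of the list genes, total counts gave 25 lower in shHKDC1 over NTC and 1 higher in the direct comparison. In shHKDC1 over NTC, DESeq2 size factors gave 11 lower and upper quartiles 10. With no CPM filter 108 list genes were tested. Higher were 5 (4.63%) in shHKDC1 over NTC, 3 (2.78%) in shRBBP5 over NTC and 6 (5.56%) in the direct comparison, against 9.97%, 2.59% and 11.8% of named genes. Lower were 17, 4 and 19 (15.7%, 3.70% and 17.6%), against 8.93%, 5.50% and 7.33%. With a mean of at least 5 CPM 16 were tested, and 3, 0 and 2 were lower (18.8%, 0% and 12.5%) against 23.0%, 5.31% and 15.5% of named genes. None was higher (0, 0 and 0), against 0.885%, 0% and 2.21%. Pseudocounts of 5, units taken as reads and leaving out abundant rows changed none of these calls of the 6 genes. Other causes of these shifts were not tested. Depth limits most the shHKDC1 values of FAM161A, ANKRD26 and CEP152, on about 23, 27 and 36 fragments.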
